A study of Equus caballus with 8 samples.

Results

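The lysyl oxidase and procollagen proteinase genes were described in mesenchymal stem cells grown from the bone marrow (BM-MSCs) of 4 horses. The set was fixed by gene symbol and held the 5 lysyl oxidases LOX, LOXL1, LOXL2, LOXL3 and LOXL4, the procollagen C-proteinase gene BMP1 and its enhancers PCOLCE and PCOLCE2. All 8 had a row among the 15266 named genes and all 8 passed a filter on low values (10 normalized counts in 4 libraries), which left 14907 genes. A normalized count is the number of reads of a gene divided by the size factor of its library. BM-MSCs are fibroblast-like cells that grow out of a marrow aspirate on plastic, and each culture is a mixture from 1 horse rather than a clone. Marrow of each horse, labelled D, J, L or W, was divided between an untreated culture and a culture with 1 ng/ml human recombinant TGF-β2 in the medium, kept from isolation to passage 3 or 4 according to the labels. Both cultures received low glucose DMEM with fetal bovine serum and, by the study's methods, basic fibroblast growth factor, so that the control is an untreated culture of the same donor with the same supplements. The labels give no age for the single horses and no genotype. There were thus 4 untreated and 4 TGF-β2-treated libraries of poly(A)-selected RNA, and between 39184554 and 57228675 reads were counted per library.

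Fibrillar collagen is secreted as procollagen, whose terminal propeptides must be cut off before the molecules assemble into fibrils. BMP1, also known as procollagen C-proteinase, removes the C-terminal propeptide and also activates the secreted precursor of LOX, while the enhancer proteins encoded by PCOLCE and PCOLCE2 bind procollagen and speed up that cut. The lysyl oxidases are copper-dependent amine oxidases that convert lysines of collagen and elastin to reactive aldehydes, from which the covalent cross-links of the matrix form. In tendon, as in other connective tissue, these cross-links give the fibrils their strength.

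In TGF-β2-treated BM-MSCs, LOX, LOXL2 and LOXL4 rose and LOXL3 fell, whereas LOXL1, BMP1, PCOLCE and PCOLCE2 did not pass the thresholds for differential expression. LOXL2 rose 6.18-fold (95% interval 4.11 to 9.29, limma, 4 horses), LOXL4 3.11-fold (1.69 to 5.73) and LOX 2.71-fold (2.23 to 3.29). LOXL3 fell to 0.490 of its untreated level (0.329 to 0.729). BMP1 had an adjusted p value of 0.0176 from limma but a log2 fold change of 0.99, just under the threshold of 1. A gene was called differentially expressed when its Benjamini-Hochberg adjusted p value over all tested genes was below 0.05 and its absolute log2 fold change was over 1. The model was limma on log2(normalized count + 1) with the horse as a block, and fold changes on that scale understate the change of genes with few counts. Of the 8 genes, 3 were called higher against 6.83% of all tested genes, and 1 was called lower against 7.31%. On the adjusted p value alone, 4 of the 8 were higher and 1 lower, where 15.7% and 15.3% of the tested genes were. The median log2 fold change was 0.54 over the 8 genes and 0.01 over all tested genes. It was 1.44 over the 5 lysyl oxidases and -0.08 over BMP1 and its 2 enhancers.

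In limma without the horse in the model, LOXL2 and LOXL3 were called, 1 gene higher and 1 lower, against 5.59% and 5.87% of the tested genes. LOX and LOXL4 had adjusted p values of 0.0633 and 0.0519 from limma in that model. DESeq2 without the horse called both, with adjusted p values of 0.0105 and 0.0188, beside LOXL2 and LOXL3. When every library was scaled to the same total of reads, 27.6% of all called genes were higher in place of 48.3%, and the median log2 fold change of all tested genes moved to -0.30. The direction and the call of LOX, LOXL2, LOXL3 and LOXL4 were the same under that scaling. FN1, COL1A1 and COL1A2 together took 0.881% to 6.27% of the reads of untreated and 10.3% to 14.4% of those of treated libraries.

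The libraries were checked against marker genes of stromal and of other marrow cells. All 7 stromal markers had a row, among them CD44, ITGB1, THY1, ENG and NT5E. Their summed normalized counts ran from 170218 to 370659 in untreated and from 174472 to 272818 in treated libraries. THY1 and PDGFRA, the genes of CD90 and of a PDGF receptor, were called lower, at -2.21 and -3.81 on the log2 scale. Of 14 markers of other marrow cells, 8 had a row, and their sums ran from 612 to 2832 in untreated and from 479 to 814 in treated libraries. Of the 7 tested, the integrin gene ITGB2 was called lower, at -1.48 on the log2 scale (adjusted p = 0.0347, limma). Its adjusted p was 0.256 from limma without the horse in the model, and no gene of this list was called by limma with D, L or W left out, against 2 without J. The highest sum, 2832 normalized counts, belonged to the untreated library of horse J. That library also held 111.8 normalized counts of CD3E, a T-cell receptor component, against 16.2 in the untreated library of W and no read in the other 6 libraries. The leucocyte gene PTPRC had 109.7 normalized counts there, against 1.19 to 41.5 in the others. Most of the sum was CD68, with 2437 normalized counts there against 362 to 740 in the others. CSF1R, of the same list, went the other way. It had 1.35 normalized counts in untreated J, against 7.83 in untreated D, 147.0 in L and 62.9 in W. Since the untreated library of J held the lowest untreated value of 6 of the 8 genes described here, each of their changes is also given without horse J. RNA-sequencing of whole cultures cannot tell apart fewer cells of a type and less RNA of a gene per cell.

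**Figure D1:**
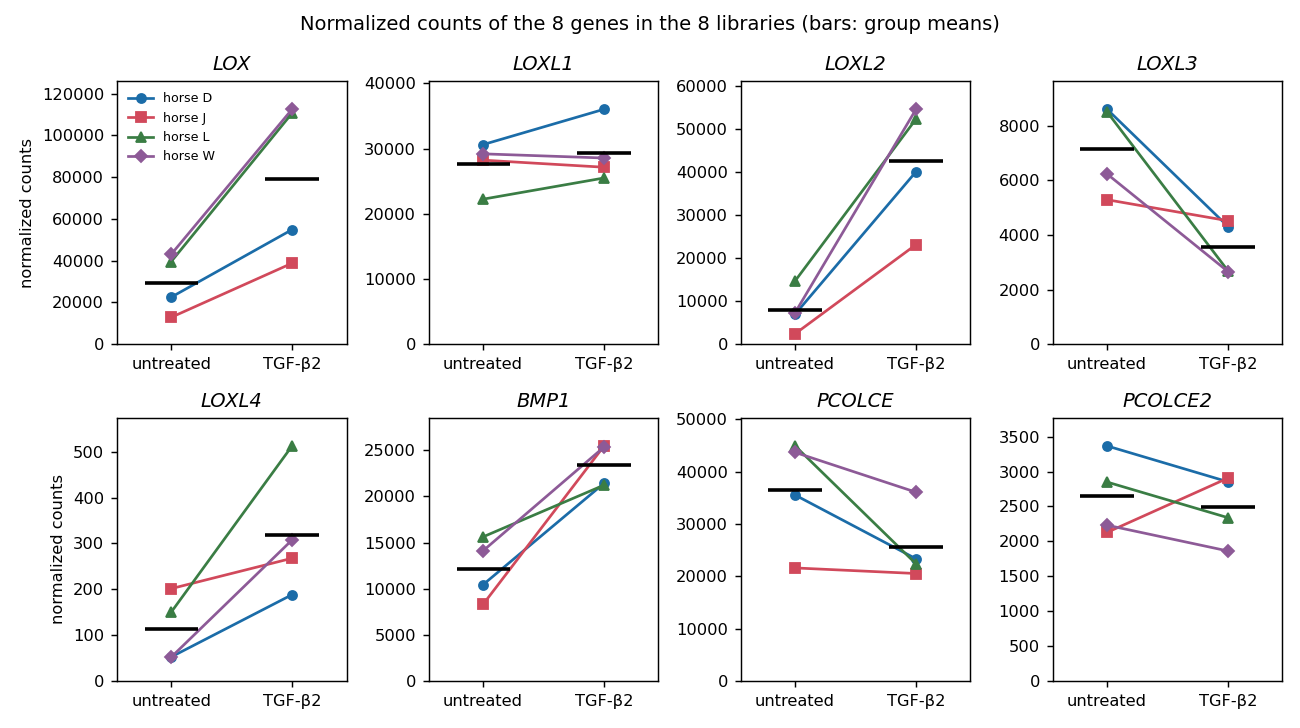
Normalized counts (linear vertical axis from 0, a separate scale for each gene) of the 8 genes in untreated and TGF-β2-treated cells, with 1 line per horse and black bars at the group means. All lines run upward for LOX, LOXL2, LOXL4 and BMP1 and downward for LOXL3 and PCOLCE, while the treated values of LOXL2 and BMP1 lie wholly above the untreated ones.

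LOX, which encodes the founding member of the family and acts on both collagen and elastin, had 22513 normalized counts in the untreated library of horse D, 12861 in J, 39519 in L and 43018 in W. With TGF-β2 it had 54883 in D, 38791 in J, 110656 in L and 112538 in W. Every horse rose, but the treated value of J was below the untreated values of L and W, so that the groups overlapped. The means were 29478 ± 14245 and 79217 ± 37969 normalized counts (SD, n = 4). The log2 change was 1.29, 1.59, 1.49 and 1.39 in D, J, L and W. Its SD between horses was 0.13, where the median gene had an SD of 0.31, and 13.6% of the tested genes had a smaller one. The horses therefore differed in the level of LOX, by 3.34 times from lowest to highest in untreated cells, and little in the size of its change. The model gave a log2 fold change of 1.44 with standard error 0.11 (adjusted p = 0.00177, limma). LOX stayed called with any single horse left out, and without J its log2 fold change was 1.39.

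LOXL2, which cross-links basement membrane type IV collagen as well as fibrillar collagen, had 6973 normalized counts in untreated D, 2418 in J, 14687 in L and 7320.3 in W. The treated libraries held 40053, 23123, 52276 and 54545 in the same order. The lowest treated value lay above the highest untreated one. The means were 7850 ± 5076 and 42499 ± 14400.1 normalized counts (SD, n = 4). The log2 fold change of 2.63 (standard error 0.24, adjusted p = 0.00253, limma) ranked 270 of 14907 genes in descending order. The horses with the lowest and the highest untreated level, J and L, had the largest and the smallest log2 change, 3.26 and 1.83. LOXL2 stayed called with any single horse left out, and its log2 fold change was 2.42 without J and 2.89 without L.

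LOXL3, a further member of the family with collagen and elastin among its substrates, moved in the opposite direction. Its untreated libraries held 8610.3 normalized counts in D, 5295 in J, 8513 in L and 6238 in W, and the treated ones 4312, 4523, 2688 and 2661. The groups did not overlap, although the change was only -14.6% in horse J, against -49.9% in D, -68.4% in L and -57.3% in W. The means were 7164 ± 1660 and 3546 ± 1010.1 normalized counts (SD, n = 4). The log2 fold change was -1.03 (standard error 0.23, adjusted p = 0.0246, limma), only just past the fold threshold. Without J it was -1.30 with an adjusted p of 0.00359 from limma. The call was lost with D, L or W left out, where the log2 fold change was -1.04, -0.82 and -0.96 and the limma adjusted p was 0.0952, 0.0629 and 0.112.

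LOXL4, the fifth lysyl oxidase of mammals, was covered by few reads. Its untreated libraries held 52.2 normalized counts in D, 201 in J, 149.8 in L and 51.7 in W, and the treated ones 188, 268, 513 and 308. Every horse rose, by 3.56-fold in D, 1.33-fold in J, 3.41-fold in L and 5.85-fold in W, but treated D was below untreated J and the groups overlapped. The lowest value of any of the 8 genes in any library, 51 reads, was one of LOXL4. The means were 114 ± 74.4 and 319 ± 138 normalized counts (SD, n = 4). The log2 fold change was 1.64 (standard error 0.35, adjusted p = 0.0220, limma). It was 2.05 without J, and the call was lost without D, L or W, with log2 fold changes of 1.58, 1.596 and 1.34 and adjusted p values of 0.0948, 0.0709 and 0.0885 from limma.

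LOXL1, whose product is best known for its role in elastic fibres, had 30613 normalized counts in untreated D, 28225 in J, 22243 in L and 29194 in W. After treatment the counts were 36035, 27142, 25493 and 28556. It was higher in D and L and lower in J and W, so the groups overlapped widely. The means of 27569 ± 3683 and 29307 ± 4657 normalized counts (SD, n = 4) differed by less than the spread between horses. The fold change was 1.06 with a 95% interval of 0.885 to 1.27 (adjusted p = 0.567, limma). Under total scaling the log2 fold change of LOXL1 was -0.23 in place of 0.09, which is above the -0.30 of the median gene under that scaling, and without J it was 0.13. In both groups LOXL1 was the lysyl oxidase with the smallest ratio of highest to lowest horse, 1.38 in untreated and 1.41 in treated cells.

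**Figure D2:**
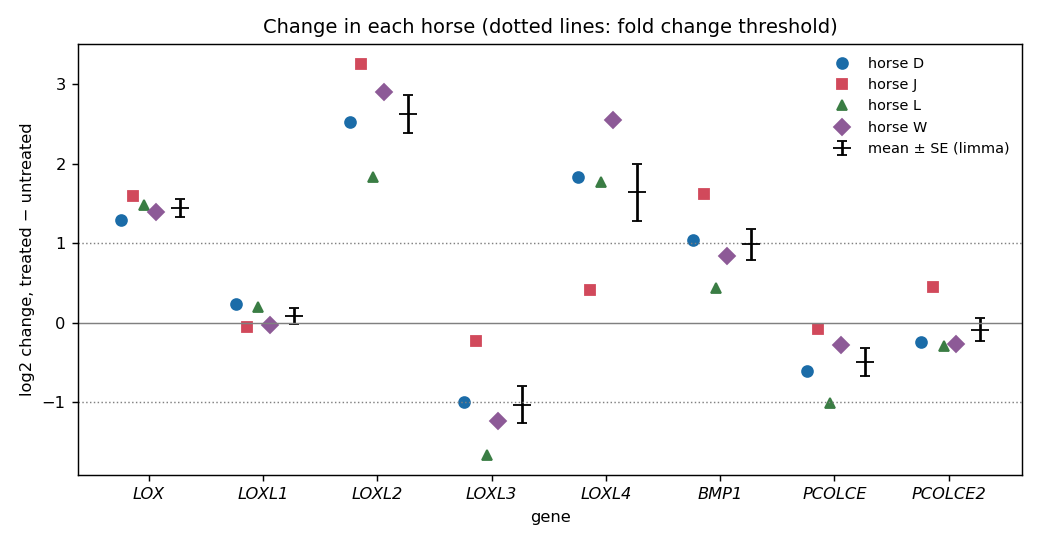
Log2 change of treated over untreated cells (vertical axis) in each of the 4 horses (coloured symbols) and the limma log2 fold change with its standard error (black) for the 8 genes, with dotted lines at the fold threshold of 1. The 4 horses lie close together for LOX, from 1.29 to 1.59, and far apart for LOXL4, from 0.41 to 2.55.

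BMP1 had 10436 normalized counts in untreated D, 8303 in J, 15620.1 in L and 14111 in W, and 21425, 25473, 21228 and 25359 after treatment. The treated libraries were all above the untreated ones. The untreated level differed by 1.88 times between horses and the treated level by 1.20 times. The means were 12118 ± 3348 and 23371 ± 2363 normalized counts (SD, n = 4), and the ratio of treated to untreated was 2.05 in D, 3.07 in J, 1.36 in L and 1.797 in W. Its log2 fold change in the model was 0.99 (standard error 0.20). BMP1 passed the adjusted p and missed the fold threshold in models with and without the horse (adjusted p = 0.0176 and 0.0114, limma). With horse L left out it was called, at a log2 fold change of 1.17, and without J it had one of 0.78. With D or W left out the adjusted p of BMP1 from limma was 0.0816 and 0.0751, and under total scaling it was 0.0507 at a log2 fold change of 0.67.

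PCOLCE, the first of the enhancers, had 35548 normalized counts in untreated D, 21606 in J, 44938 in L and 43701 in W. The treated libraries held 23353, 20540.1, 22383 and 36088. All 4 horses had a negative change, from -4.94% in J to -50.2% in L, but the groups overlapped, since treated W exceeded untreated D and J. The means were 36449 ± 10736 and 25591 ± 7094 normalized counts (SD, n = 4). The log2 fold change of -0.49 had an unadjusted 95% interval of -0.92 to -0.06 and an adjusted p of 0.0844 from limma. DESeq2 with the horse in the model gave an adjusted p of 0.0365 on all 4 horses, at a log2 fold change of -0.49. Without J the log2 fold change was -0.63 (adjusted p = 0.0383, limma). Under total scaling it was -0.80 (adjusted p = 0.0201, limma), and in both cases it was short of the fold threshold. Without L it was -0.32 and without D -0.45 (adjusted p = 0.212 and 0.251, limma).

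PCOLCE2 had 3368 normalized counts in untreated D, 2129 in J, 2850.4 in L and 2232 in W, and 2854, 2908, 2339 and 1862 with TGF-β2. It was lower in D, L and W and higher in J. The means of 2645 ± 578 and 2491 ± 491 normalized counts (SD, n = 4) were within the spread between horses. The fold change was 0.944 with a 95% interval of 0.731 to 1.22 (adjusted p = 0.696, limma). Without J the log2 fold change was -0.26 in place of -0.08 (adjusted p = 0.0506, limma).

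In 2 of the 8 genes, LOXL2 and BMP1, all treated libraries lay above all untreated ones, which held for 13.9% of the tested genes. LOXL3 was the 1 gene with all treated libraries below, and this too held for 13.9% of the tested genes. The change had the same sign in all 4 horses in 6 of the 8 genes, LOXL1 and PCOLCE2 being the exceptions. The share of all tested genes with the same sign in all 4 horses was not computed, so this count has no background. Horse J had the lowest untreated level of LOX, LOXL2, LOXL3, BMP1, PCOLCE and PCOLCE2 and the highest of LOXL4. In the same 6 genes, all but LOXL1 and LOXL4, J had the uppermost log2 change of the 4 horses, and L had the lowermost in 5 genes. A low untreated value raises the change computed from it, so the low levels and the high changes of J are not separate observations. The share of all tested genes with such an order of horses was not computed. The high sum of other marrow cell markers in the untreated library of J stands beside these values, and its part in them was not tested. Without J, limma called 3 of the 8 genes higher and 1 lower, among 1143 higher and 1299 lower of all genes.

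The sizes of the changes were set against each other within each horse, in 8 pairs of genes. With 4 horses the exact two-sided sign-flip test cannot give a p below 0.125, so that none of these differences could reach 0.05. LOXL2 rose more than LOX in all 4 horses, by 0.35 to 1.66 on the log2 scale with a mean of 1.19 ± 0.59 (SD, n = 4, exact p = 0.125, adjusted over the pairs 0.167). The log2 change of LOXL3 minus that of LOX was -2.47 ± 0.56 and that of LOXL1 minus LOX -1.35 ± 0.25, both negative in 4 of 4 horses with the same exact p values. LOXL4 minus LOX had both signs, from -1.18 to 1.16 (exact p = 0.75). The log2 change of PCOLCE was below that of BMP1 in all 4 horses, with a mean difference of -1.48 ± 0.26 (exact p = 0.125, adjusted 0.167). PCOLCE2 minus PCOLCE was positive in all 4 horses, from 0.01 to 0.72, with a mean of 0.41 ± 0.30 (exact p = 0.125, adjusted 0.167). The log2 change of BMP1 was below that of COL1A1, the gene of the main chain of type I procollagen, in all 4 horses, the difference lying between -2.10 and -0.60 on the log2 scale (exact p = 0.125, adjusted 0.167). LOX rose less than COL1A1 in 3 of 4 horses, and in L it rose more, by 0.45 (exact p = 0.25).

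The substrates of these enzymes were followed in the same model. Of 11 fibrillar procollagen genes listed, 8 had a row, while COL2A1, COL3A1 and COL11A2 had none. Of the 8 tested, 5 were called higher and none lower, with a median log2 fold change of 1.90. COL11A1 and COL5A1, which regulate the diameter of type I fibrils, had log2 fold changes of 3.31 and 3.00, COL1A1 of 2.496, COL5A2 of 2.13 and COL1A2 of 1.67. COL1A2 had an adjusted p of 0.0414 from limma, and of 0.0919 without the horse in the model. COL5A3, COL24A1 and COL27A1 did not pass the test (log2 fold changes -0.64, 0.42 and -0.52). With D or with W left out, 3 of the 8 were called, and the calls over all tested genes fell from 2108 to 1173 and 1080. The change of COL1A1 ran from 1.04 in L to 3.72 in J and that of COL11A1 from 3.15 in W to 3.58 in J.

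Of 7 other procollagen proteinase genes listed, 3 had a row and were tested, and 1 was called. ADAMTS14, a procollagen N-proteinase that removes the propeptide at the other end of the chain, had 28.03 ± 14.8 normalized counts without and 389.8 ± 84.98 with TGF-β2 (SD, n = 4), and rose by 3.94 on the log2 scale (standard error 0.45, adjusted p = 0.00423, limma). ADAMTS2, a second N-proteinase gene, was higher in J and W and lower in D and L, with a log2 fold change of 0.55 (adjusted p = 0.438, limma). TLL2, a tolloid-like relative of BMP1, had a log2 fold change of -0.17. Of 13 further substrates of BMP1-type proteinases listed, 10 had a row and were tested. Of these, 3 were called higher and none lower, with a median log2 fold change of 0.72. Among them, LTBP1 (a binding protein of latent TGF-β) and BGN (biglycan) had log2 fold changes of 1.70 and 1.49. HSPG2, the perlecan gene, had an adjusted p of 0.0480 from limma and a value of 0.67 on the log2 scale, under the fold threshold. With D left out 1 of these genes was called, where the calls over all tested genes fell from 2108 to 1173. Without J 1 was called lower.

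Scaffold proteins that bring BMP1, LOX and collagen together, and proteins that shape the fibril, had 5 of 11 genes called higher and 2 lower. A listed gene without a row, POSTN, could not be tested. FN1 (fibronectin), on which BMP1 and LOX are known to assemble, rose from 361461 to 3033720 mean normalized counts (log2 fold change 3.30, adjusted p = 0.00596, limma). SFRP2, a secreted Frizzled-related protein known to bind BMP1-type proteinases, had a log2 fold change of 4.91, which ran from 2.88 in L to 7.12 in J. ELN, the elastin substrate of LOX and LOXL1, and THBS1 (thrombospondin-1) had log2 fold changes of 3.28 and 2.38. The 3 remaining called genes were chosen after their values were seen: FBN1 (fibrillin-1) was higher by 1.96, and LUM (lumican) and TNXB (tenascin-X) were lower, with log2 fold changes of -1.80 and -1.61. FMOD, the fibromodulin gene, and the fibulin genes EFEMP2, FBLN5 and FBLN1 did not pass the test. Of the 7 called genes, TNXB was lost without the horse in the model (adjusted p = 0.0772, limma). With D or W left out 4 and 3 genes of this list were called, among 1173 and 1080 of all tested genes in place of 2108.

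**Figure D3:**
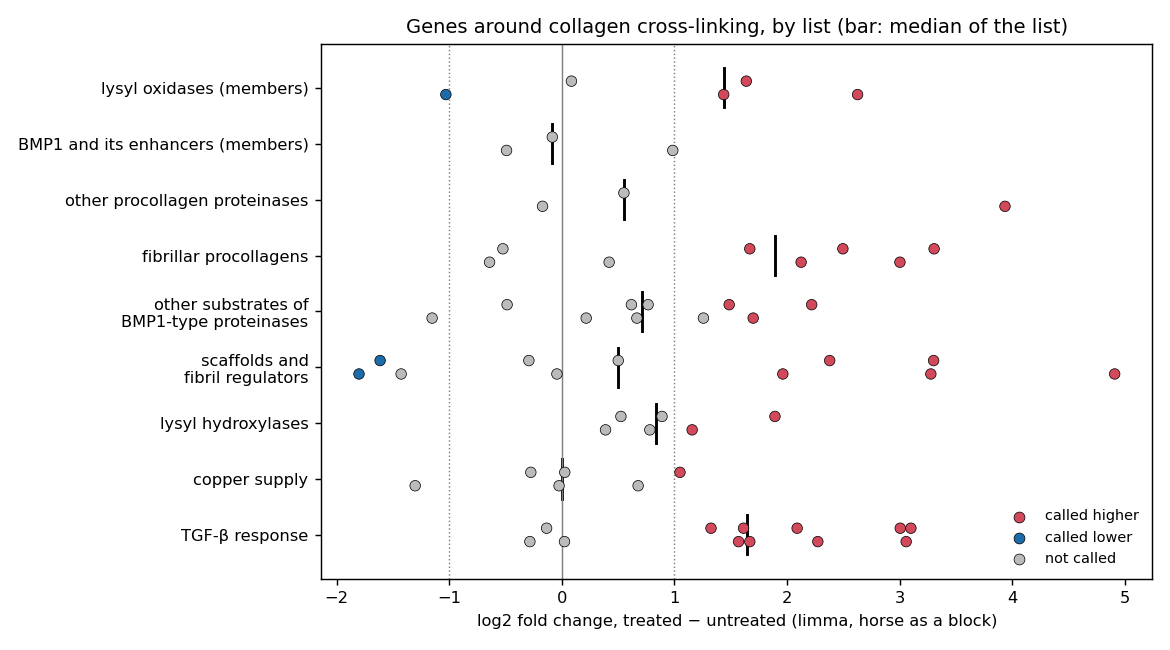
Log2 fold change (horizontal axis, limma with the horse as a block) of each tested gene in the lists of lysyl oxidases, BMP1 and its enhancers, other procollagen proteinases, procollagens, other substrates, scaffolds, lysyl hydroxylases, copper supply and TGF-β response, with called genes coloured and a bar at the median of each list. The lysyl oxidases spread from -1.03 to 2.63, and the copper supply genes from -1.30 to 1.05.

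The lysines that lysyl oxidases act on can first be hydroxylated within the cell. All 6 genes of lysyl hydroxylation and its partners had a positive log2 fold change, in 4 of 4 horses each, and 2 of the 6 were called higher. How many of all tested genes rose in 4 of 4 horses was not computed. PLOD2, the hydroxylase of the telopeptide lysines that take part in cross-links, rose from 18632 to 68348 mean normalized counts, a log2 fold change of 1.89 (standard error 0.20, adjusted p = 0.00367, limma). Its chaperone partner FKBP10 had a log2 fold change of 1.16. PLOD1 had one of 0.89 with an adjusted p of 0.00613 from limma and missed the fold threshold. Under total scaling 1 of the 6 was called.

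Lysyl oxidases receive their copper in the secretory pathway, by way of the pump ATP7A. Of 7 copper supply genes listed, 6 had a row and were tested. Of these, 1 was called higher and none lower, with a median log2 fold change of 0.00. ATP7A was lower in all 4 horses with a log2 fold change of -0.27 (adjusted p = 0.0782, limma). The copper importer gene SLC31A1 had a log2 fold change of 0.68 (adjusted p = 0.0135, limma), below the fold threshold. The called gene was ATP7B, a related pump with few reads, from 31.3 to 64.7 mean normalized counts. No copper gene was called with D or with W left out, where 1173 and 1080 of all tested genes were called in place of 2108. Under total scaling the 1 called gene was SLC31A2, lower by a log2 fold change of -1.61. Of 12 tested genes listed for the TGF-β response, 9 were called higher and none lower, against 6.83% and 7.31% of all tested genes. Among them were PMEPA1 and CNN1 with log2 fold changes of 3.06 and 3.10. The list was chosen with earlier results of these data known, so it is no independent check of the treatment. The 3 that were not called, SMAD7, SKI and LTBP2, had log2 fold changes of 0.02, -0.28 and -0.13.

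The transcripts whose log2 normalized counts most resembled each gene over the 8 libraries were found by Pearson's correlation among all tested genes. These 8 points share 4 horses and 1 treatment, and the values describe likeness only. LOX was most like LOC100055965, LOC100057188 and TAGLN, the transgelin gene of contractile cells (r = 0.992, 0.992 and 0.989). LOXL2 was most like TBC1D12, TACC1 and the type IV collagen gene COL4A2 (r = 0.993, 0.991 and 0.988). BMP1 had KDELR1, a receptor that returns chaperones to the endoplasmic reticulum, SSR2, a subunit of the translocon-associated complex, and ZFPL1 (r = 0.995, 0.994 and 0.992). LOXL3 had GPATCH2L, CUL5 and MPC2 (r = 0.991, 0.983 and 0.979), all 3 with negative log2 fold changes. For LOXL4 these were FLT1, a VEGF receptor, IWS1 and RASL10B (r = 0.984, 0.982 and 0.976), and for PCOLCE they included TMEM30A and LOC111767431 (r = 0.989 and 0.980). LOXL1 and PCOLCE2 had no gene above 0.937, with LOC106782452, TUBGCP4 and NME5 for the former and GPAT3, CKAP5 and MIR9152 for the latter. Among the 8 genes themselves, LOXL2 and BMP1 were the most alike (r = 0.929), followed by LOX and LOXL2 (r = 0.924), and LOXL3 and LOXL4 were the most opposed (r = -0.81).

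Since no transcript length of this build was used, levels were compared within a gene and not between genes. In a RefSeq annotation of another horse assembly, TB-T2T, LOXL3 overlaps HTRA2, LOXL4 overlaps R3HCC1L, and PCOLCE overlaps FBXO24 and the non-coding LOC111776194. Reads of overlapping genes cannot be told apart where the counting ignores strand, which is not given in the sources used here. R3HCC1L, with 408 and 324 mean normalized counts in untreated and treated cells, had a log2 fold change of -0.33 against 1.64 for LOXL4. HTRA2 had 1330.5 and 1089, FBXO24 61.0 and 50.7 and LOC111776194 21.5 and 16.6 mean normalized counts. Their means were lower in treated cells, as were those of LOXL3 and PCOLCE. Whether reads were shared between overlapping genes was not tested.

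**Figure D4:**
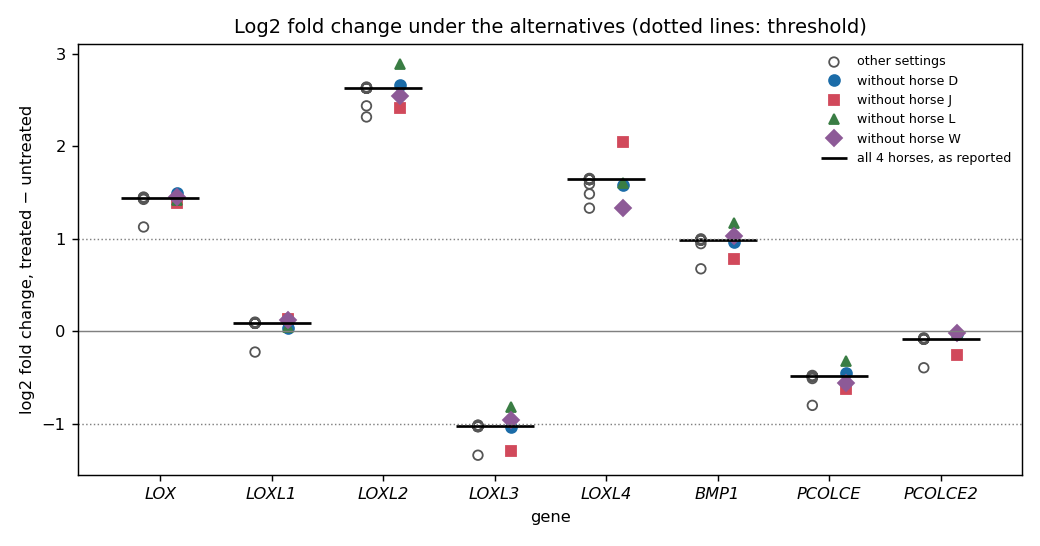
Log2 fold change (vertical axis) of the 8 genes as reported (black line), with each horse left out (coloured symbols) and under the other settings (open circles), with dotted lines at the fold threshold of 1. LOX and LOXL2 stay above 1 throughout, with lowest values of 1.13 and 2.31, whereas LOXL3 and BMP1 lie on both sides of the threshold, LOXL3 from -1.34 to -0.82 and BMP1 from 0.67 to 1.17.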

How the data were processed

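RNA of 8 libraries, 4 untreated and 4 with TGF-β2, was sequenced, grouped and paired by the treatment and horse in the sample titles. Per the study's methods and the submitters' processing notes, the authors trimmed reads (Trimmomatic 0.36), aligned them to EquCab 3.0 (STAR 2.5.2b), counted unique hits per gene (featureCounts, Subread 1.5.2) and deposited normalized counts, a signal that equals gene counts divided by a size factor per library. Of 15267 rows, 1 names no gene and was dropped (0.0281% to 0.0531% of reads). Within a library, all values were multiples of the same step (100% whole within 0.001 reads), which gave back the reads. These were used for depth and for the count tests. The smallest value of any described gene was 51 reads. Counting error is a part of the spread between libraries.

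The filter asked for 10 normalized counts or more in 4 or more libraries. Genes were tested with limma 3.58.1 (R 4.3.3, eBayes with trend) on log2(normalized count + 1) with the horse as a block. The study's methods describe the samples as paired and name no donor term. The block was used because both libraries of a letter come from 1 animal: same-horse libraries deviated together from their group means (r across genes 0.386 to 0.609, against -0.40 to 0.12 for different horses). Deviations from a group mean cancel out within the group. Positive same-horse values therefore push those of different horses towards negative values, and the 2 ranges are not independent. Alternatives were no block, pseudocounts of 0.5 and 5, no filter and one at 50, total, TMM and upper-quartile scaling, no trend, edgeR 4.0.16 with the block, DESeq2 1.42.0 with it and without, an adjusted p under 0.01, no fold threshold, and each horse left out with the block kept. The procedures were run on simulated counts in which the changed genes had a log2 fold change of 2, up or down. That change was the same in every simulated horse. Smaller changes, and changes that differ between horses, were therefore not covered. Pairs of genes were compared by an exact sign-flip test over horses.

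The genes described and the lists around them were chosen with earlier results of these data known. In each list, up to 4 called genes with the largest log2 fold change and the 2 with the highest mean were named, and the 3 most correlated genes for each of the 8, except 3 genes that are not reported here. No sequence or coordinate is printed, since a genome, transcript or protein sequence of the build was not used here.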

Additional observations from a re-analysis of the deposited data

How the results depend on the processing

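LOX, LOXL2, LOXL3 and LOXL4 kept their direction under all 18 alternatives run. Those that change only the block, the filter, the trend or a threshold of limma leave its fold changes as they were, and so could not change a direction. LOXL2 was called in all 18 and LOX in 17, the exception being limma without the replicate block, where 2 of the 8 genes were called, 1 of them higher. There LOX and LOXL4, at the same log2 fold changes of 1.44 and 1.64 by design, lost the call, and leaving out the block changed no other call among the 8. At an adjusted p under 0.01, 2 of the 8 were called and 0 of them lower: LOXL3 (-1.03) and LOXL4 (1.64) were lost, and over all genes 1116 were called, 567 higher and 549 lower. With no fold threshold BMP1 (0.99) was called, among 4610 genes, 2334 higher and 2276 lower. Total scaling called 1832 genes lower in place of 1090 and gave LOXL1 a log2 fold change of -0.23. With each horse left out, 2 to 4 of the 8 genes were called, 0 to 1 lower, and 1080 to 2442 of all genes, 547 to 1143 higher and 533 to 1299 lower. The fewest were called without W and without D (1080 and 1173). The log2 fold change ran from -1.30 to -0.82 for LOXL3, from 1.34 to 2.05 for LOXL4 and from 0.78 to 1.17 for BMP1, and the difference LOXL4 minus LOX from -0.12 to 0.66. The cause of these moves was not tested. With the horse in the model, limma, edgeR and DESeq2 each called 4 of the 8 genes; without it DESeq2 called 4 and limma 2. Leaving a horse out leaves 3 pairs, which limits the test for genes whose change differs between horses.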
